A study of Oryza sativa with 4 samples.

Results

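Among the H4K5ac regions of Hanyou73 rice leaves that were listed under both water regimes, a minority was broader under drought. The regions described here are 1-to-1 pairs on chromosomes 1 to 12, each made of 1 drought-stressed and 1 well-watered peak that overlapped each other by at least 1 bp and no other peak. A pair was kept where its drought-stressed width was at least 1.2 times its well-watered width. This held for 1287 of 23644 pairs (5.44%), called widened pairs from here on. Chromatin immunoprecipitation and sequencing with an antibody to H4K5ac had been done on leaves sampled during grain filling, with 2 libraries from drought-stressed and 2 from well-watered plants of this one cultivar, a hybrid bred for water saving and drought resistance. Each condition is represented by 1 peak list, to which both of its libraries point. The labels do not say whether the libraries of a condition came from separate plants.

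Acetylation of lysine 5 of histone H4 is set by histone acetyltransferases and removed by deacetylases. It neutralises a positive charge on the histone tail, and it is read by proteins with bromodomains. In plant chromatin, histone acetylation of this kind lies mostly around the starts of transcribed genes, and water deficit is known to change it at stress-responsive genes. The width of a peak is the length over which the signal passed the threshold of the peak caller, so it depends on signal strength and sequencing depth as well as on the extent of the mark.

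The lists held 26147 drought-stressed and 28883 well-watered peaks. The lower limit of peak width was 145 bp under drought and 139 bp under well-watered conditions, and the closest neighbours within a list were 146 bp apart under drought and 140 bp apart under well-watered conditions. Read depth is unknown, and no list gives a value per library. There is therefore no spread between replicates and no test between conditions. Intervals in brackets after shares and medians are 95% intervals that cover counting error only and treat neighbouring pairs as independent. The pairs were chosen by their widths in both lists, so widths, gains and end shifts below are descriptions. Position along a chromosome and distance to neighbouring peaks were not used by the rule. Neighbouring peaks did enter it through overlap, since peaks that overlapped any further peak were left out. A drought-stressed peak that reached a neighbouring well-watered peak is therefore not among the pairs. The results on neighbours and adjacent pairs below hold only for the pairs that were kept.

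Widening of this size was the rarer direction. The mirror image, a well-watered width of at least 1.2 times the drought-stressed width, was met by 6642 pairs (28.1%), and 5720 pairs (24.2%) were broader under drought by any amount. The widened pairs had a median width of 434 bp under drought (interquartile range 304.5 to 655.5 bp) and 279 bp under well-watered conditions (192 to 456.5 bp). Their median gain was 129 bp (123 to 133 bp), with an interquartile range of 83 to 186 bp and extremes of 29 and 792 bp. Gains under 50 bp were found in 76 pairs, gains of 50 to 99 bp in 368, of 100 to 199 bp in 562, of 200 to 299 bp in 195, and of 300 bp or more in 86. The median width ratio was 1.37. Of the widened pairs, 460 lay between 1.2 and 1.3, 420 between 1.3 and 1.5, 281 between 1.5 and 2, and 126 at 2 or above. The last class had the narrowest well-watered peaks, with a median of 186 bp, against 407 bp in the first.

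**Figure D1:**
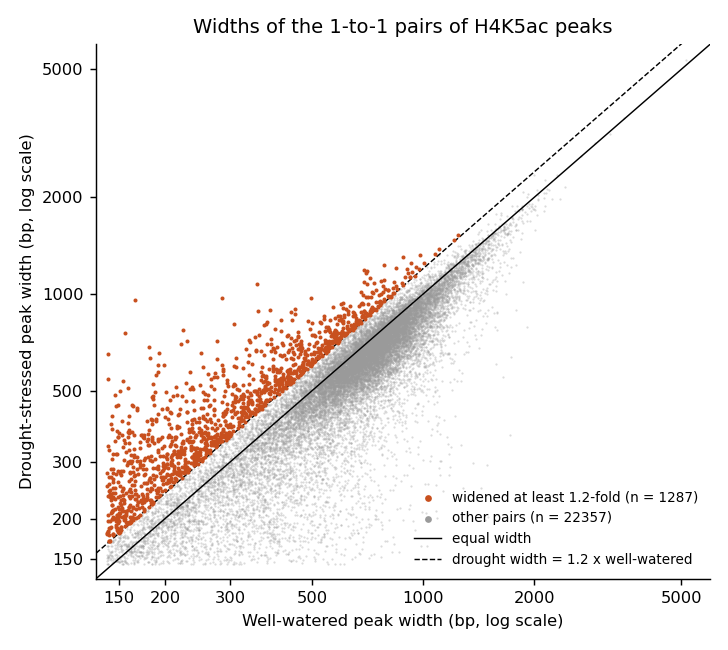
Width under drought (vertical axis, bp) against width under well-watered conditions (horizontal axis, bp), both on log scales, for 1287 widened pairs (orange) and 22357 other pairs (grey). The widened pairs lie on or above the dashed line at a ratio of 1.2 and crowd towards narrow well-watered peaks, while most other pairs lie below the line of equal width.

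At the edge of the definition, just inside it, were 3 pairs with a ratio of 1.2. They lay on chromosome 1, with 222 bp under drought and 185 bp under well-watered conditions from 27021404, and with 894 and 745 bp from 40807074, and on chromosome 10, with 222 and 185 bp from 20606419. Just outside it, with a ratio that rounds to the same value, were pairs on chromosome 7 (1327 bp under drought and 1106 bp under well-watered conditions), chromosome 5 (613 and 511 bp) and chromosome 8 (385 and 321 bp).

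The widened pairs were narrow and low in score. Their mean width over both lists had a median of 355 bp, against 637.5 bp for the other pairs. By decile of mean width, 405 of 2369 pairs were widened in the lowest, which spanned 142 to 274 bp (17.1%, 15.6% to 18.7%). The second decile had 13.03% and the fifth 3.21%, and in the highest (944 bp and above) 23 of 2365 pairs (0.973%) were widened. A ratio of 1.2 takes a gain of fewer bp in a narrow pair than in a broad one. These shares are therefore partly set by the rule and are a description. The shares narrowed at least 1.2-fold ran differently, at 27.99% in the lowest decile, 44.2% in the second and 16.6% in the highest. The lower limit of peak width touches this comparison. A well-watered peak under 174 bp could not narrow 1.2-fold and still reach the shortest listed drought-stressed width, and 234 of the widened pairs (18.2%) had such a peak, against 4.21% of other pairs of matched mean width. Without these, 1053 widened pairs stood against 6642 narrowed ones. Narrowed pairs whose drought-stressed peak was close to the lower limit were not taken out in turn.

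The score is the submitters' own value for each peak and its scale is not stated, so levels were not compared between the lists. Under drought the widened pairs had a median score of 106, at the percentile 23.3 of the drought-stressed list. Under well-watered conditions their median was 107, at the percentile 24.4 of that list. Other pairs of matched mean width stood at the percentiles 33.3 and 39.7 of the same lists. Narrowed pairs of matched mean width stood at the percentiles 22.1 and 32.3, so low drought-stressed scores were common to widened and narrowed pairs. By matched mean width is meant here and below that the other pairs were weighted so that their mean widths fell into 20 classes in the same proportions as those of the widened pairs. A score of at least 100 in both lists was found in 582 widened pairs (45.2%), against 63.9% of other pairs of matched mean width and 84.01% of all other pairs. To order pairs by score, the geometric mean of the scores in both lists was used. In the lowest decile of this mean, 500 pairs were widened where the mean widths alone gave 311. In the highest decile 15 were widened where the widths gave 74.4. Narrowing at least 1.2-fold was also more frequent at low score, with 47.3% of pairs in the lowest decile and 16.3% in the highest. Low score thus accompanied changes of width in either direction, and its part in the result was not tested.

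**Figure D2:**
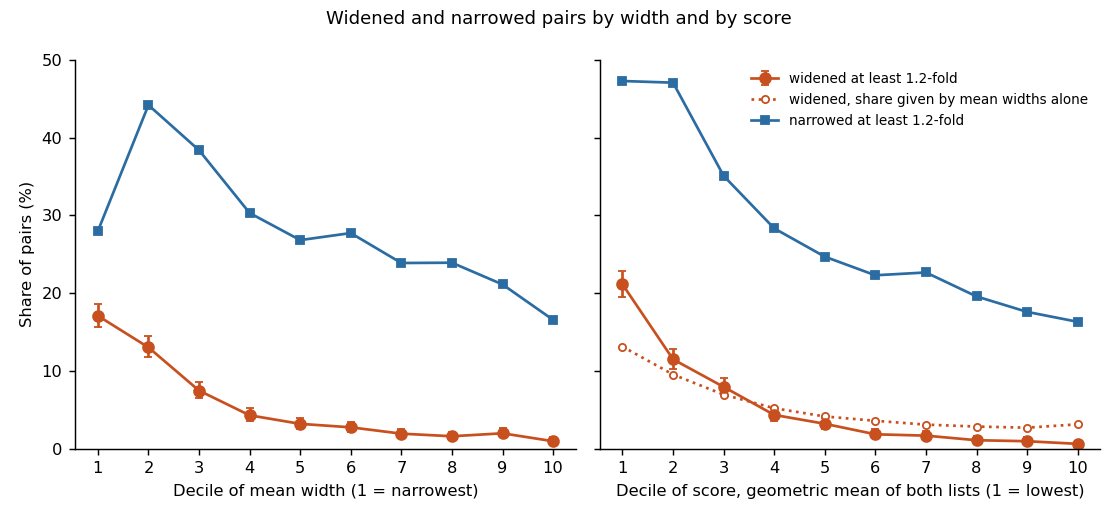
Share of pairs widened (orange circles, with 95% Wilson intervals) and narrowed (blue squares) at least 1.2-fold, by decile of mean width (left) and of score (right). The open circles give the widened share that mean widths alone would give in each score decile; the observed share exceeds it in the 3 lowest deciles and lies below it in the other 7.

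The first question about these regions was whether they grew at 1 end or at both. Both ends lay outside the well-watered peak in 732 of 1287 widened pairs (56.9%, 54.2% to 59.6%). In 515 pairs (40.02%) 1 end lay outside and the other end had moved inward, and in 40 (3.11%) the other end had not moved. The drought-stressed peak contained the whole well-watered peak in 772 pairs, and it covered less than 50% of it in 28. Over all widened pairs the gain was uneven. The end with the larger shift lay a median of 126 bp further out, and the other end a median of 6 bp. The larger end held a median of 95.04% of the outward gain (93.8% to 96.5%), and at least 80% of it in 898 pairs (69.8%, 67.2% to 72.2%). Pairs with gain at 1 end count with 100% here. In the 732 pairs with gain at both ends the shifts were more even, with medians of 97 and 24 bp. The larger end held a median of 78.8% of the gain there, and at least 80% of it in 343 pairs (46.9%, 43.3% to 50.5%). Counting an end as gained only from 20 bp on, both ends gained in 33.1% of the widened pairs.

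The pattern of ends differed in size from that of smaller and of opposite changes. Of pairs wider under drought by less than 1.2-fold, 31.2% had gained at both ends after weighting to the same mean widths. Their gain was smaller by selection, with a median of 26 bp without the weighting, so this difference is a description. Of pairs narrowed at least 1.2-fold, 72.7% had lost at both ends after the same weighting, and their larger end held a median of 85.2% of the loss. Where both ends of a narrowed pair had moved inward, that share was 76.4%, close to the 78.8% of the widened pairs with gain at both ends. A narrowed pair shows the common direction of the lists, a widened pair the rarer one. The left end shifted more in 633 widened pairs and the right end in 653, with 1 equal, so neither side of the chromosome sequence prevailed (49.2% left, 46.5% to 51.9%). The share with gain at both ends was 60.4% for well-watered widths under 200 bp, 53.4% from 200 to 299 bp, 56.95% from 300 to 599 bp and 56.4% at 600 bp and above. These shares have overlapping intervals. By ratio the shares were 56.3%, 55.95% and 54.4% in the classes up to 2, and 67.5% (58.9% to 75.02%) in the 126 pairs at 2 or above. The midpoint of the peak moved by a median of 57 bp in the widened pairs and 23 bp in other pairs of matched mean width. In narrowed pairs it moved by a median of 57.5 bp, or 45.5 bp after weighting to the same mean widths, so large shifts of the midpoint were found with changes of width in either direction.

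**Figure D3:**
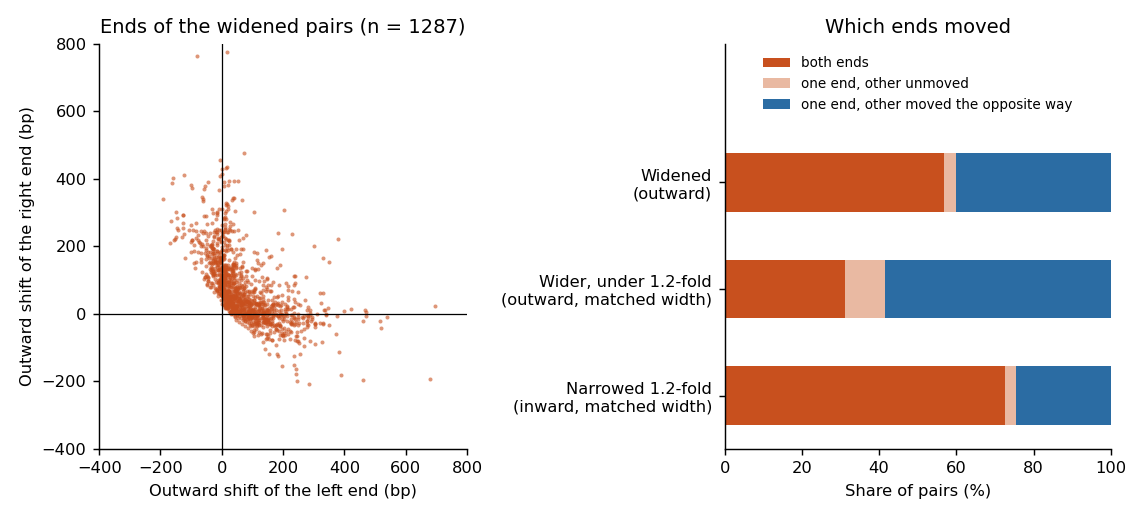
Left, outward shift of the right end against outward shift of the left end (bp) for the 1287 widened pairs; negative values are inward shifts. Right, share of pairs whose ends moved together, for widened pairs (outward, 56.9% at both ends), pairs wider by less than 1.2-fold (outward, 31.2%) and narrowed pairs (inward, 72.7%), the last 2 weighted to the widened pairs' mean widths. Most points on the left lie near 1 of the axes, which is a gain mainly at 1 end.

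The 10 largest gains, of 497 to 792 bp, show both forms. They turned well-watered peaks of 140 to 384 bp into drought-stressed peaks of 650 to 1075 bp. All had low scores, 51 to 159 in the drought-stressed list and 25 to 161 in the well-watered list. On chromosome 8 the drought-stressed peak ran from 10960017 to 10960974 (958 bp) and the well-watered peak from 10960034 to 10960199 (166 bp). It had gained 775 bp at the right end and 17 bp at the left. On chromosome 3 the drought-stressed peak from 3607450 to 3608524 (1075 bp) lay over a well-watered peak from 3608145 to 3608500 (356 bp), with 695 bp of gain at the left end and 24 bp at the right. These are gains almost wholly at 1 end.

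On chromosome 10 the drought-stressed peak from 17673648 to 17674616 (969 bp) met a well-watered peak from 17673568 to 17673853 (286 bp). Its right end lay 763 bp further out and its left end 80 bp further in. The pair on chromosome 1 (drought-stressed from 5838683 to 5839568, well-watered from 5839221 to 5839577) and that on chromosome 2 (17275102 to 17275906 against 17275619 to 17275926) had the same form, with 538 and 517 bp gained on the left and small losses on the right.

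The other 5 had gained at least 73 bp at each end. On chromosome 12 a drought-stressed peak of 650 bp from 7285665 to 7286314 lay over a well-watered peak of 140 bp, 1 bp above the shortest of its list, with 203 bp gained on the left and 307 bp on the right. On chromosome 3 (21391388 to 21392142 under drought, 755 bp, against 156 bp) the gains were 378 and 221 bp. Those on chromosome 4 (2751572 to 2752461, 890 bp against 384 bp) were 351 and 155 bp. On chromosome 8 (22210886 to 22211568, 683 bp against 181 bp) they were 302 and 200 bp, and on chromosome 6 (21881470 to 21882242, 773 bp against 224 bp) 73 and 476 bp.

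**Figure D4:**
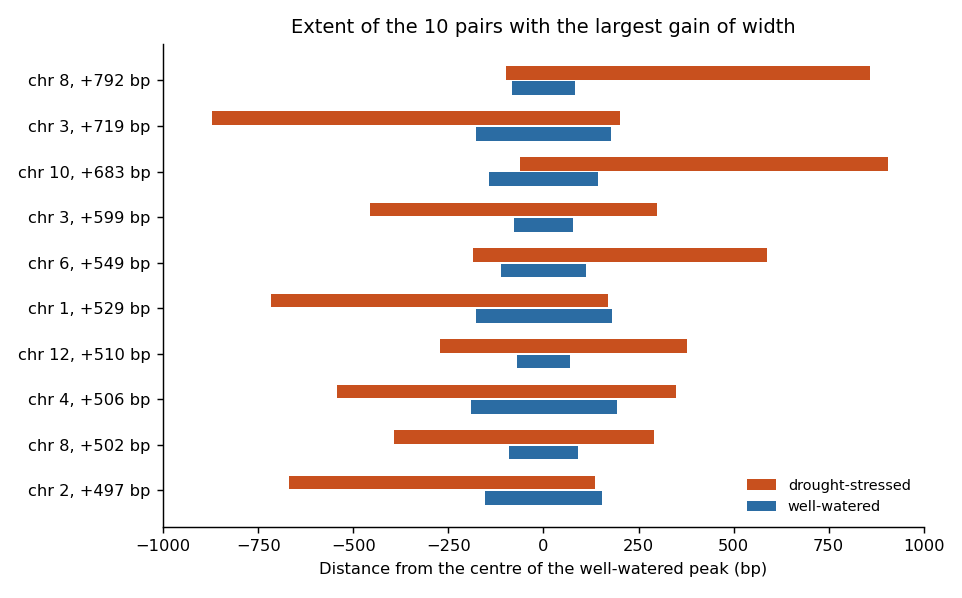
Extent of the drought-stressed (orange) and well-watered (blue) peak of the 10 pairs with the largest gain, as distance in bp from the centre of the well-watered peak, ordered from 792 bp at the top to 497 bp at the bottom. The first 3 and the pairs on chromosomes 1 and 2 grew almost wholly to 1 side.

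Strong and broad regions were few among the widened pairs. Ordered by geometric mean score, the first was on chromosome 5, where 319 bp under drought (29804707 to 29805025, score 18951) met 242 bp under well-watered conditions (29804779 to 29805020, score 22147). It had gained 72 bp on the left and 5 bp on the right, and it lay 0.151 Mb from the last peak of the chromosome. Next by this mean were 2 regions of chromosome 12, of 497 bp under drought against 394 bp (drought-stressed from 4409219) and of 1381 against 1107 bp (from 11870315). They were followed by chromosome 1 from 33502892 (411 against 316 bp, with the second highest drought-stressed score of the 5, 5299) and chromosome 3 from 13482899 (1128 against 892 bp). Of these 5, 3 had gained at both ends.

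The broadest widened pair lay on chromosome 11, with 1522 bp under drought (18464177 to 18465698) and 1243 bp under well-watered conditions (18464482 to 18465724). The next was on chromosome 1, with 1472 bp from 41680316 and 1214 bp from 41680594, and the third was the 1381 bp region of chromosome 12. In all 3 the left end lay 277 to 305 bp further out and the right end 3 to 26 bp further in. The net gain of width was 258 to 279 bp.

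The second question was where the widened pairs lay. They were spread over all 12 chromosomes. The share was highest on chromosome 8, with 108 of 1640 pairs (6.59%, 5.48% to 7.89%), and lowest on chromosome 2, with 117 of 2648 (4.42%, 3.70% to 5.27%). Mean widths alone gave 91.98 and 133.8 widened pairs there. On the other 10 chromosomes the observed count was between 0.891 (chromosome 10) and 1.1 (chromosome 1) of that given by the widths. Within 2 Mb of a chromosome end lay 198 widened pairs (15.4%, 13.5% to 17.5%), against 16.2% of other pairs of matched mean width, where the end was taken as position 0 or the last peak. The number of well-watered peaks within 250 kb had a median of 44 (43 to 45) around widened pairs and 45 around the matched pairs. In 5 classes of this density, from 2 to 30 peaks in the lowest to 59 to 83 in the highest, the share of widened pairs was 5.70%, 5.54%, 5.87%, 4.44% and 5.72%. The third class held 272 widened pairs where mean widths gave 239.8, and the fourth 220 where they gave 254. The shares did not rise or fall steadily with density.

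The third question was which peaks lay beside them. The nearest other well-watered peak was a median of 3605 bp away (3312 to 3931 bp), against 3160 bp for other pairs of matched mean width. It lay within 1 kb in 308 widened pairs (23.9%, 21.7% to 26.3%) and 24.7% of the matched pairs, within 5 kb in 62.4% (59.7% to 65.0%) and 67.3%, and beyond 20 kb in 5.13% and 4.54%. Without the weighting, 15.6% of other pairs had a neighbour within 1 kb. The nearest other drought-stressed peak was a median of 4034 bp from widened pairs and 3621 bp from matched pairs.

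Over all widened pairs, peaks listed in 1 condition only were about as frequent as beside matched pairs. A drought-only peak lay within 5 kb of 75 widened pairs (5.83%, 4.67% to 7.24%), against 5.38% of matched pairs. A well-watered-only peak did so in 208 (16.2%, 14.3% to 18.3%), against 16.1%. Either kind was found within 5 kb of 268 widened pairs (20.8%, 18.7% to 23.1%) and 20.1% of matched pairs. The shares lay further apart under several other settings. With well-watered widths of at least 300 bp they were 19.5% (16.5% to 22.9%) and 15.3%, and with a ratio of 1.1 in place of 1.2 they were 20.4% (18.8% to 22.1%) and 18.6%. With a ratio of 1.5 they were 23.8% (19.95% to 28.2%) and 21.6%. With scores of at least 100 in both lists they were 18.04% (15.1% to 21.4%) and 15.8%. Above the median score they were 9.47% (6.08% to 14.5%) and 7.07%. Within 20 kb the order was reversed, with 49.4% and 50.2%. After matching on score as well as mean width, the share in other pairs was 22.3%, above that of the widened pairs.

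Within the 1-to-1 pairs, the gain did not lean towards the nearer neighbour. A gain that reached a neighbouring well-watered peak could not be counted here, because the rule leaves such peaks out. The end with the larger shift faced the nearer well-watered peak in 643 of 1284 widened pairs with a peak on each side (50.1%, 47.3% to 52.8%). Where the nearest peak was within 1 kb this held in 148 of 308 (48.05%, 42.5% to 53.6%). Without weighting, it held there in 43.8% of pairs wider by less than 1.2-fold (40.3% to 47.4%). In narrowed pairs with a peak as near, the end with the smaller loss faced it in 54.6% (51.8% to 57.4%). The gap of the widened pairs was a median of 6423.5 bp on the side of the larger shift and 6524 bp on the other.

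The fourth question was whether widened regions clustered. Most stood alone. Of the 1287, 151 (11.7%, 10.1% to 13.6%) had a widened pair as the previous or next pair on the chromosome, against 11.2% of other pairs of matched mean width. Counted over all adjacent pairs, 158 of 2572 beside widened pairs were themselves widened (6.14%, 5.28% to 7.14%). The mean widths of those adjacent pairs alone gave 5.85%, and beside matched pairs the share was 5.78%. Beside widened pairs, 25.1% of adjacent pairs were wider under drought by any amount (23.4% to 26.8%), against 25.7% beside matched pairs. Narrowed at least 1.2-fold were 763 of 2572 adjacent pairs (29.7%), against 27.1% beside matched pairs. The mean widths of the adjacent pairs gave 28.3% in both cases. With a gap of up to 1 kb, 86 of 238 were narrowed (36.1%), against 27.8% beside matched pairs. The widths gave 31.2% and 31.1% there. The median width ratio of the adjacent pairs was 0.914 beside widened pairs and 0.925 beside matched pairs. The regions next to a widened one were thus mostly narrower under drought, as were pairs elsewhere. Narrowing of at least 1.2-fold was more frequent beside widened than beside matched pairs, a difference that was not tested.

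Distance changed this little. With a gap of up to 1 kb, 24 of 238 adjacent pairs were widened (10.1%, 6.87% to 14.6%), against 7.83% beside matched pairs. With 1 to 2 kb the shares were 5.13% and 7.51%, with 2 to 5 kb 5.50% and 5.47%, with 5 to 20 kb 5.61% and 5.16%, and beyond 20 kb 6.37% and 5.80%. At 2, 3, 5, 10 and 20 pairs along the chromosome, between 4.25% and 6.46% of pairs were widened. Consecutive widened pairs lay a median of 186531 bp apart, and 70 of 1275 gaps were 10 kb or shorter.

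**Figure D5:**
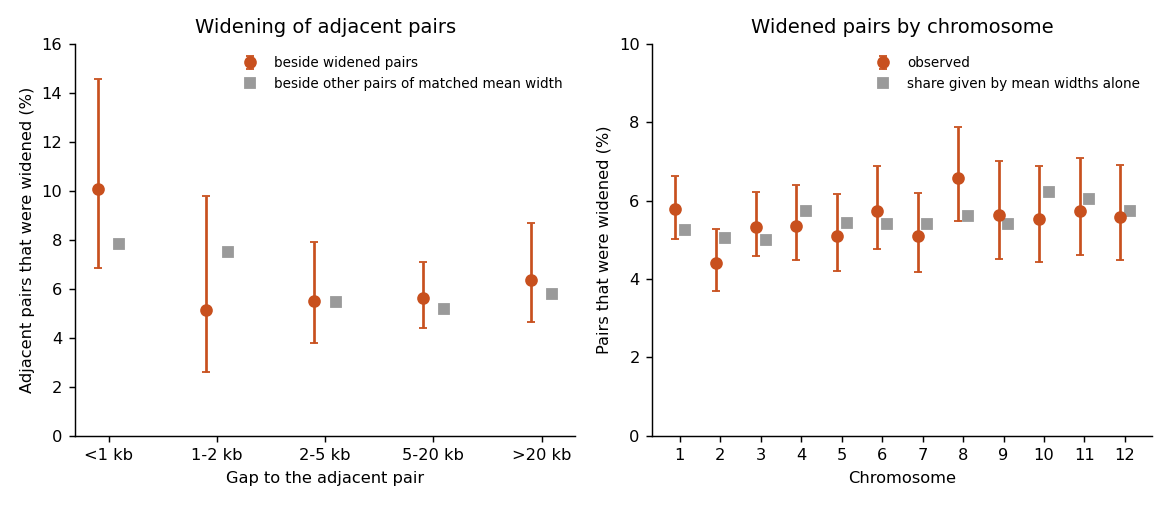
Left, share of adjacent pairs that were widened, by the gap to them, beside widened pairs (orange, with 95% Wilson intervals) and beside other pairs of matched mean width (grey squares). Right, share of pairs widened on each chromosome (orange, with intervals) and the share given by mean widths alone (grey squares). The intervals include the grey squares in every gap class and on each chromosome.

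Runs of adjacent widened pairs, with no gap over 100 kb, were short. There were 66 runs of 2, 5 of 3 and 1 of 4, and the other 1136 widened pairs stood alone. The run of 4 lay on chromosome 12 from 20545688 to 20620427, with drought-stressed widths of 229 to 514 bp against 182 to 277 bp, and all 4 pairs had gained at both ends. Of the runs of 3, chromosome 1 held 2, at 10604904 to 10616755 and at 20065740 to 20073494. The others were at 19591121 to 19598508 on chromosome 2, at 2751572 to 2778850 on chromosome 4 and at 5781814 to 5790310 on chromosome 9. The first run on chromosome 1 held 2 pairs, 371 bp apart under well-watered conditions, that grew at their outer ends. There the pair of 347 bp under drought against 271 bp had gained 106 bp on the left and lost 30 bp on the right. Its neighbour of 676 against 332 bp had lost 46 bp on the left and gained 390 bp on the right. The run on chromosome 4 began with the eighth largest gain named above.

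One stretch stood out in number. Chromosome 12 from 20464675 to 20668658, where most pairs were wider under drought, held 9 widened pairs among 30, where mean widths gave 3.52. All 9 had gained at both ends, by 47 to 347 bp. Their median score was 638 under drought and 336 under well-watered conditions, above the medians of 106 and 107 of all widened pairs in the same lists. The 1 Mb window around it, from 20 to 21 Mb, had the highest share of widened pairs of the 372 windows with at least 20 pairs, 10 of 59 (16.9%). The tenth, at 20888594 to 20889059, had a score of 53 under drought and 34 under well-watered conditions. The median window had 5.33% (interquartile range 3.16% to 7.004%), 24 windows had none, and 7 had 15% or more. Because the direction of its pairs defined the stretch, its count is a description. The copy number of its sequence was not examined here.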

How the data were processed

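Of the 4 libraries, 2 were from drought-stressed and 2 from well-watered leaves, grouped by the treatment named in the labels. The deposited data are 1 peak list per condition. Each list gives, per deposited row, chromosome, start, end, name and the authors' score, whose scale is not stated. Per the submitters' processing notes, BWA, SAMtools, MACS2 and deepTools were used. The sources used here give no version, genome build, control or threshold. Positions follow the lists and count from 1. The gene table at hand belongs to another assembly, so no gene or sequence is given.

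Pairs were formed from peaks sharing at least 1 bp, with pandas 2.3.3 and numpy 2.4.6 in Python 3.11.15, and the 25025 overlaps were checked with bedtools 2.31.1. Other pairs were weighted to the widened pairs' mean widths in 20 classes. Counts given by widths are sums of the class rates. Intervals are at 95%, Wilson for shares and by order statistics for medians. The pairs on Un and Sy were left out. No test was made, since each condition has 1 list. On simulated lists made from 28794 peaks, 200 of 200 planted widened pairs were recovered. The planted pairs met the ratio by construction, so this checks the code only.

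Named regions followed a rule: the 10 largest gains, 5 highest scores, 3 broadest, longest runs (ties included), the 3 pairs on each side of the ratio of 1.2, and the top window. The regions and measures were chosen with earlier results of these data known.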

Additional observations from a re-analysis of the deposited data

Results flagged for a closer look

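Regions joined under drought lie outside the 1-to-1 pairs and carry a signal that no comparison above uses. On chromosomes 1 to 12, 155 drought-stressed peaks overlapped 2 or more well-watered peaks, 154 of them exactly 2. Their median width was 795 bp (interquartile range 587.5 to 1098.5 bp), with a median score of 117 in the drought-stressed list. A widened pair lay within 5 kb of 7 of them (4.52%, 95% interval 2.20% to 9.03%). The share was 4.06% for the drought-stressed peaks of the other 1-to-1 pairs, and 2.47% for those of at least 795 bp. The opposite case, a well-watered peak over 2 or more drought-stressed peaks, was found 497 times, with a median width of 1174 bp. A widened pair lay within 5 kb of 13 of these (2.62%, 1.53% to 4.42%), against 4.10% of the well-watered peaks of the other 1-to-1 pairs and 3.10% of those of at least 1174 bp.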

How the results depend on the processing

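The 8 shares and medians above and the number of widened pairs were recomputed with other settings, which gave 81 values, and 45 of these moved by less than the counting interval (or, for the number, by less than 1.5 times). With a ratio of 1.1, 2348 pairs were widened, 52.3% with gain at both ends, 97.4% of the gain at the larger end and 20.4% with an adjacent widened pair. With a ratio of 1.5 there were 407, of which 2.46% had an adjacent widened pair and 23.8% a condition-only peak within 5 kb, and 27.5% of adjacent pairs were wider. With reciprocal overlap of 50%, which drops every ratio above 2, the adjacent shares were 9.64% and 23.4%. With peaks above the median score only, 190 pairs were widened. Their values were 50.5% with gain at both ends, 99.2% at the larger end, 8.42% with an adjacent widened pair (7.53% without the chromosome 12 stretch), 7206 bp to the nearest peak, 23 peaks within 250 kb, 17.9% near an end, 9.47% near a condition-only peak and 22.96% of adjacent pairs wider. Fewer peaks enter there, which by itself lowers densities and lengthens distances. With well-watered widths of at least 300 bp there were 595 pairs, 4050 bp from the nearest peak. With scores of at least 100 in both lists there were 582, with 61.5%, 93.75%, 9.79%, 4013.5 bp and 18.04% for gain at both ends, larger end, adjacent widened pair, nearest peak and condition-only peak. Other limits gave 33.1% with gain at both ends (20 bp), 9.09% with an adjacent widened pair (within 20 kb), 8.55% and 49.4% near a condition-only peak (1 and 20 kb), medians of 9 and 168 peaks (50 kb and 1 Mb) and 39.4% within 5 Mb of an end. Other pairs of matched mean width had an adjacent widened pair in 19.4% (ratio of 1.1), 4.05% (ratio of 1.5) and 10.1% (reciprocal overlap). Their shares were 2.91% above the median score, 10.4% with scores of at least 100 and 8.91% within 20 kb. Matching on score as well changed the share with gain at both ends among slightly wider pairs from 31.2% to 27.6%. The share with gain at both ends stayed above that of the slightly wider pairs in each alternative run on it. The widened pairs were selected for a larger gain, which is the sum of both end shifts (median 129 bp against 26 bp). That order is therefore partly set by the selection and is a description only. For location, neighbours and adjacent pairs, the difference from matched pairs changed sign or vanished in 15 of the recomputed values. Merging peaks closer than 100 bp changed nothing, since none are. A gain of at least 100 bp in place of the ratio was met by 1063 pairs, and only their number was recomputed. The alternatives with scores of at least 100, with the stretch left out (for the number, and together with the median score) and from 300 bp (for the number) were added after the data were seen. No paired analysis was possible because the 2 libraries of a condition share 1 list, and no library could be left out either. The depth is unknown, which limits statements on low-scored peaks, the larger part of the widened pairs.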

Other observations

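With peaks above the median score of their list alone, 190 of 12616 pairs were widened (1.51%), of which 167 are among the 1287 and 23 became 1-to-1 pairs because a lower-scored peak was dropped. In this set 16 had an adjacent widened pair (8.42%, 5.25% to 13.2%), against 2.91% of other pairs of matched mean width. The 16 formed 8 couples on chromosomes 3, 4, 6, 7, 10 and 12. On chromosome 10, 766 bp under drought against 393 bp (drought-stressed from 5070857 to 5071622) lay beside 814 against 678 bp (5073560 to 5074373). On chromosome 4, 274 against 219 bp (32337612 to 32337885) lay beside 766 against 541 bp (32338417 to 32339182). One couple, 354 against 277 bp and 229 against 182 bp, belonged to the chromosome 12 stretch. These values rest on 8 couples, and the interval counts both pairs of a couple as independent. Pairs with lower-scored peaks that lay between 2 of them were not counted.

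On the sequences Un and Sy, which the definition leaves out, 3 of 74 pairs were widened (4.05%, 1.39% to 11.3%). They measured 791 bp under drought against 650 bp (Sy), 189 against 150 bp (Un) and 481 against 330 bp (Un).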
